A study of Rattus norvegicus with 20 samples.

Results

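Immediate-early genes were followed in the subiculum of Wistar rats 24 hours after seizures. The genes were 10 of the 32883 Ensembl gene IDs in the table of raw counts: Fos (ENSRNOG00000008015), Fosb (ENSRNOG00000046667), Jun (ENSRNOG00000026293), Junb (ENSRNOG00000042838), Egr1 (ENSRNOG00000019422), Egr2 (ENSRNOG00000000640), Arc (ENSRNOG00000043465), Nr4a1 (ENSRNOG00000007607), Dusp1 (ENSRNOG00000003977) and Btg2 (ENSRNOG00000003300). They were chosen by ID as well-known members of this class, by a rule that used no counts, though earlier results of these data were known. All 10 were present and passed the filter on low counts in every comparison. The symbols came with the list of IDs. They could not be checked, because the file holds no names and 0 of its IDs matched the RefSeq gene table at hand.

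The study's 20 libraries form 4 groups of 5, from wild-type rats aged 3 months: dorsal control, dorsal preconditioning, ventral control and ventral preconditioning. Preconditioning is the labels' word for the protocol, which the series title describes as acute seizures after electric pulses to the perforant pathway, which carries fibres from the entorhinal cortex to the hippocampal formation. The subiculum, the output region of the hippocampus, was cut from frozen sections by laser microdissection, so each library is bulk tissue in which fewer cells of a type and less RNA per cell cannot be told apart. How the controls were handled is not given in the sources used here. The labels do not say whether the 5 libraries of a group came from separate animals, so p-values measure the spread between libraries, which may be technical. Total counts ran from 3087146 in ventral control 1 to 20463678 in ventral control 4. The tissue could not be checked against marker genes, as the IDs of such genes have no names here.

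Immediate-early genes are transcribed within minutes of neuronal firing, from promoters already occupied by the factors that switch them on, and need no new protein. Calcium and kinase signals act on CREB, which binds cyclic AMP response elements (CRE), and on serum response factor, which binds CArG boxes. Their transcripts normally decay within hours. Seizures are a classical trigger in the hippocampal formation, and the interval sampled here lies well after that first burst.

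The bases before the start sites of 4 of the genes are shown because they carry these response elements, and because the genes include some that fell and some that did not pass the test. All are from RefSeq on GRCr8, where 7 of the 10 symbols matched a promoter entry. Fos, Jun and Arc did not, so their promoters were not searched. Each run is the 250 bases up to the annotated start, on the gene's own strand, 5′ to 3′. They lie at chr18:26736828-26737077 (plus strand, Egr1), chr20:21054442-21054691 (minus strand, Egr2), chr10:17184603-17184852 (plus strand, Dusp1) and chr13:48087691-48087940 (minus strand, Btg2). Capitals mark a match to any of the motifs named after the sequences, on either strand.
Egr1: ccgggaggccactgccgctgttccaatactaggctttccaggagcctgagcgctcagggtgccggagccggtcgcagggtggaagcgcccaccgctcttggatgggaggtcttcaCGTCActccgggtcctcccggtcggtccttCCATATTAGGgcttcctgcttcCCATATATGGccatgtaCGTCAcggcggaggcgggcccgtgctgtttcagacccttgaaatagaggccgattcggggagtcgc
Egr2: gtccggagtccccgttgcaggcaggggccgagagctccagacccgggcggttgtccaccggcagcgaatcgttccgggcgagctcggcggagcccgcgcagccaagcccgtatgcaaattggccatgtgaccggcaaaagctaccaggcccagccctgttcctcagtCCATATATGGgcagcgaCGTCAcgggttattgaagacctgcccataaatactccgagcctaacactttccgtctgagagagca
Dusp1: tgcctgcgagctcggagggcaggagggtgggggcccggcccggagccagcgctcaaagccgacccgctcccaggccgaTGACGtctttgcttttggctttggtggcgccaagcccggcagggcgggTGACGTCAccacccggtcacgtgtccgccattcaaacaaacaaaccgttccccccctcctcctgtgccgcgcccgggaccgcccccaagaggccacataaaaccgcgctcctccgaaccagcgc
Btg2: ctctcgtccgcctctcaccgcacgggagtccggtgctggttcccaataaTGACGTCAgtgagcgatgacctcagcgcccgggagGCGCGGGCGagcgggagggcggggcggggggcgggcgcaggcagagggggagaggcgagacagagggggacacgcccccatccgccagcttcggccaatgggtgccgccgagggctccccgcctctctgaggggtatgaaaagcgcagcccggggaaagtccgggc

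Positions are counted back from -1, the base before the start. Egr1 held CArG boxes at -105 to -96 and at -83 to -74, and Egr2 held 1 at -83 to -74. A CRE half-site, TGACG or its complement on the other strand, stood at -66 to -62 in both, and Egr1 had another at -135 to -131. Dusp1 held the full CRE, TGACGTCA, at -124 to -117, and Btg2 held it at -201 to -194. A full CRE contains half-sites, so these matches overlap. Btg2 also had a match to the EGR site GCGNGGGCG at -166 to -158. Among the 7 promoters searched, 6 held a CRE half-site, 2 a full CRE, 2 a CArG box, 2 an EGR site, 2 a TATA box (TATAAA) and 0 an AP-1 site (TGAGTCA). Among all 33469 promoters in the table, windows of the same length held them at 18.2%, 1.59%, 1.50%, 4.29%, 12.9% and 4.05%. All matches were counted on either strand and anywhere in the window. The TATAAA matches were in Junb, at -49 to -44, and in Fosb, on the other strand at -180 to -175. Fosb was also the promoter without a CRE half-site. A match of letters does not show binding, and no binding was measured here.

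The first comparison asked how the genes stood in the dorsal subiculum 24 hours after the protocol. Where these transcripts differed from the controls they were lower, not higher. Egr1 and Arc fell to about 0.492 and 0.533 times the control level, and all 10 estimates were negative, from -1.60 to -0.11 on the log2 scale. Of the genes tested, 51.6% had a negative estimate. The median over the 10 genes was -0.73, against -0.0073 over all 13647 genes tested.

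A gene was called when edgeR's quasi-likelihood test gave a Benjamini-Hochberg adjusted p under 0.05. By that rule 2 of the 10 genes fell and 0 rose; 0.0586% of all genes tested were called lower, 8 genes in all, of which Egr1 and Arc were 2. At an unadjusted p under 0.05 there were 8 of the 10, where the share over all genes was 8.11%. The ranges of the groups were fully apart, with treated libraries lower, for 2 of the 10 and for 1.14% of all genes.

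Egr1 encodes a zinc-finger transcription factor that responds to synaptic activity and is tied to lasting plasticity. In CPM, counts scaled to TMM-adjusted library size, dorsal controls 1 to 5 had 74.5, 64.9, 82.4, 91.7 and 80.8. Dorsal preconditioning 1 to 5 had 45.8, 28.5, 34.1, 42.1 and 43.9. Every treated library was below every control. Its estimate was -1.02 on the log2 scale (SE 0.14, adjusted p = 0.00501). The call held in all 17 alternatives. Of these, 1 was the same fit read at an adjusted p under 0.1, which could not end a call.

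Arc encodes a protein that gathers at active synapses and promotes removal of AMPA receptors. Its dorsal controls measured 138, 146, 139, 184 and 150.0 CPM, and its treated libraries 75.8, 49.5, 76.6, 96.5 and 106 CPM. The groups were again apart, and the estimate was -0.91 (SE 0.17, adjusted p = 0.0388). This call was close to the threshold: it was lost on leaving out any 1 dorsal control, dorsal preconditioning 1 or dorsal preconditioning 3, with adjusted p-values from 0.0513 to 0.135. It held, at 0.0165 to 0.0455, without dorsal preconditioning 2, 4 or 5.

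Egr2, a relative of Egr1, had few counts. Its controls measured 0.670, 1.45, 1.16, 1.59 and 1.78 CPM, and treated libraries 0.176, 1.48, 0.292, 0.132 and 0 CPM. Of the treated libraries, 4 lay under every control, each on at most 2 counts, and dorsal preconditioning 2, with 19 counts, lay within the control range. The estimate of -1.60 (SE 0.66) did not pass (adjusted p = 0.528). Without dorsal preconditioning 2 it was -3.20, and it passed (adjusted p = 0.0296). With any other single library left out it did not pass (adjusted p 0.461 to 0.825).

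Fos, the founding member of the class and a partner in the AP-1 transcription factor, was spread in a similar way. Dorsal controls had 7.32, 3.69, 2.18, 2.55 and 6.16 CPM. Treated libraries had 0.791, 3.73, 1.60, 1.19 and 1.09 CPM. Dorsal preconditioning 2 was again the one that overlapped the controls, and the controls themselves spread widely. The estimate was -1.41 (95% interval -2.35 to -0.46, adjusted p = 0.315), and -1.97 without that library (adjusted p = 0.0637).

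The other AP-1 genes gave smaller estimates. Junb measured 40.4 ± 10.1 CPM in controls and 26.8 ± 4.05 after the protocol (SD, n = 5 each), and Fosb 9.04 ± 2.78 and 6.34 ± 1.75. Jun, a direct DNA-binding partner of Fos, was 55.8 ± 16.8 and 52.0 ± 11.3 CPM, with an interval for the log2 fold change of -0.53 to 0.30. None of these passed, with adjusted p-values of 0.251 (Junb), 0.627 (Fosb) and 0.933 (Jun).

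Nr4a1, an orphan nuclear receptor, went from 75.1 ± 13.7 to 49.6 ± 11.7 CPM (adjusted p = 0.251). Dusp1 removes phosphate from MAP kinases and so limits the signal that induces it. It went from 30.2 ± 7.02 to 17.8 ± 3.62 CPM, with 4 of 5 treated libraries below every control, and did not pass (log2 fold change -0.76, adjusted p = 0.115). DESeq2, limma-voom and the fit of all 20 libraries called it (adjusted p = 0.0102, 0.0222 and 0.0447). Btg2, an anti-proliferative regulator of mRNA decay, went from 8.48 ± 1.89 to 5.21 ± 1.68 CPM (adjusted p = 0.33).

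The same question in the ventral subiculum gave 3 genes that fell, Egr1, Jun and Btg2, and 0 that rose. Among all 13291 genes tested, 2.12% were called lower. Estimates were negative for 9 of the 10 genes, where 52.1% of all genes were negative. Their median was -0.43, against -0.011 over all genes. At an unadjusted p under 0.05 there were 5 of the 10, beside 18.0% of all genes, and groups were apart with treated libraries lower for 3 of the 10, beside 2.96%.

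Egr1 measured 65.3, 42.3, 53.3, 66.3 and 34.2 CPM in ventral controls 1 to 5, and 26.2, 17.7, 39.6, 26.7 and 22.2 CPM in the treated libraries. The groups overlapped through ventral preconditioning 3, which exceeded ventral control 5. On the log2 scale the change was -0.99 (SE 0.21, adjusted p = 0.0139), or 0.505 times the control level. It passed in all 17 alternatives, as Btg2 did, the looser threshold again being 1 of them.

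Btg2 had ventral controls at 11.1, 7.20, 6.88, 8.65 and 11.3 CPM. Its treated libraries stood at 3.61, 5.67, 3.25, 5.36 and 3.61 CPM, all below the lowest control. The log2 fold change was -1.05 (SE 0.22, adjusted p = 0.00995). In the dorsal region the estimate had been -0.71, which did not pass.

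Jun fell by a smaller step with a tight spread. Ventral controls measured 170, 176, 209, 176 and 189 CPM, and treated libraries 153, 146, 141, 145 and 126 CPM, with no overlap. The change was -0.37 (SE 0.090, adjusted p = 0.0268). The call was lost without ventral control 3, 4 or 5 or ventral preconditioning 3 or 4 (adjusted p 0.0513 to 0.0824), without the low-count filter (0.0524) and with all 20 libraries in 1 fit (0.206).

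Dusp1 was apart between the groups and yet not called. Its ventral controls had 26.6, 17.9, 14.9, 14.3 and 17.4 CPM, and the treated libraries 9.57, 11.95, 12.8, 12.6 and 13.1 CPM. The highest treated library lay just under the lowest control. The log2 fold change was -0.57 (SE 0.17, adjusted p = 0.0719), and DESeq2 called it (adjusted p = 0.0231).

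Nr4a1 went from 29.8 ± 8.50 to 20.6 ± 4.67 CPM (SD, n = 5 each) and did not pass (log2 fold change -0.55, adjusted p = 0.135). Without ventral control 2 it was -0.68 and passed (adjusted p = 0.0247), as it did with limma-voom (0.0224). With any other single library left out Nr4a1 did not pass (adjusted p up to 0.356). Arc, which fell in the dorsal region, went from 49.8 ± 11.5 to 39.3 ± 11.5 CPM, with an interval of -0.78 to 0.087 for the log2 fold change (adjusted p = 0.409). Junb went from 37.6 ± 2.47 to 30.2 ± 8.20 CPM, with 4 of 5 treated libraries below every control and ventral preconditioning 3, at 43.5 CPM, above them all (adjusted p = 0.288). It passed without that library (adjusted p = 0.0444), and with no other single library left out (adjusted p up to 0.49).

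Fos, Fosb and Egr2 gave the smallest or least certain ventral estimates. Fos was 2.95 ± 2.17 CPM in controls and 1.79 ± 0.688 CPM after the protocol, and Fosb 5.20 ± 2.67 and 4.49 ± 1.30 CPM. Egr2 was level, at 2.19 ± 0.685 and 2.21 ± 0.808 CPM, with an interval from -0.62 to 0.71. Adjusted p-values were 0.596, 0.8 and 0.964.

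**Figure D1:**
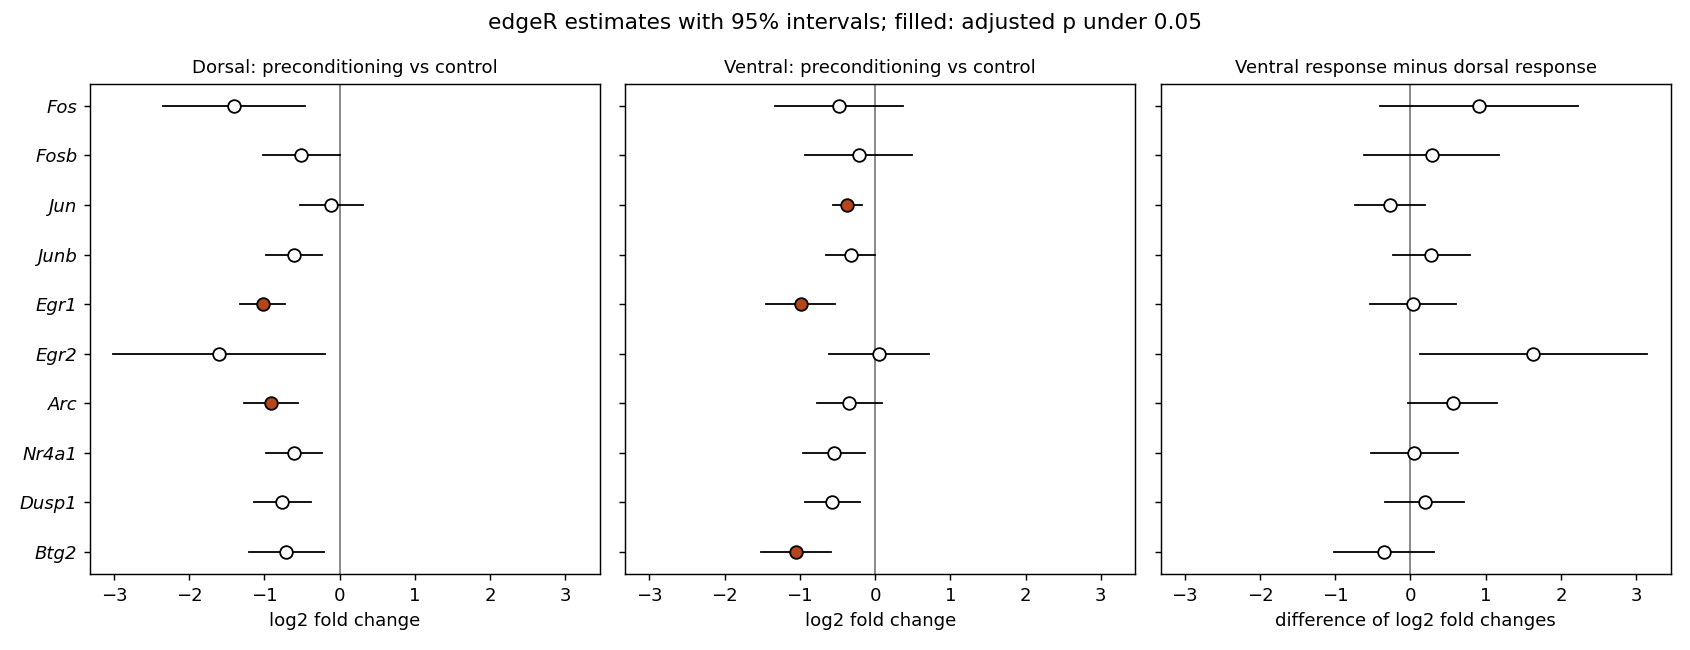
Log2 fold change of each gene (horizontal axis) after the protocol in the dorsal region, in the ventral region, and the difference of the regional responses; lines are 95% intervals from edgeR and filled circles passed an adjusted p of 0.05. Nearly all dorsal and ventral estimates lie left of 0, and none of the regional differences is filled.

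An interaction term, fitted to all 20 libraries, asked whether the regions responded differently. None of the 10 genes passed (adjusted p 0.695 or more), where 0.0781% of 14087 genes were called. DESeq2, limma-voom and a fit that paired same-numbered dorsal and ventral libraries also called 0 of the 10. The values below are from the fit without pairing. At an unadjusted p under 0.05 there was 1, Egr2, beside 6.73% of all genes. For Egr1 the difference was 0.033 with an interval of -0.53 to 0.60, so responses differing by up to about 0.6 on the log2 scale remain within the error. For Arc the difference was 0.56, with an interval of -0.032 to 1.15. For Egr2 it was 1.63 (0.12 to 3.15), or 3.23 without dorsal preconditioning 2, where the adjusted p was 0.0612. Hence a gene that passed in 1 region only, such as Arc, Jun or Btg2, was not shown to respond differently there.

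The genes also differed between the regions in the control libraries, and not all in one direction. There, 5 of the 10 genes differed, where 25.7% of all 13509 genes tested did. Arc, Nr4a1, Dusp1 and Egr1 were lower in the ventral region, and Jun was higher there.

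Dorsal controls averaged 151 ± 18.8 CPM of Arc and ventral controls 49.8 ± 11.5 (SD, n = 5 each), a ratio of 3.04 (adjusted p = 4.70e-06). Nr4a1 was 2.52 times as high in the dorsal controls (75.1 against 29.8 CPM, adjusted p = 0.000116), and neither gene's regional ranges overlapped. Smaller ratios held for Dusp1, at 1.66 (adjusted p = 0.0111), and Egr1, at 1.51 (adjusted p = 0.0163). Jun went the other way, at 184 ± 15.6 CPM ventrally and 55.8 ± 16.8 CPM dorsally, 3.30 times as much in the ventral region (adjusted p = 7.60e-06).

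Fosb was 1.74 times as high in dorsal controls and did not pass (log2 difference -0.82, adjusted p = 0.0836). Same-numbered dorsal and ventral controls deviated from their group means together, and with that pair as a block Fosb passed (-0.89, adjusted p = 0.00367). Fosb also passed without dorsal control 3 (adjusted p = 0.0465), without ventral control 4 (0.0479) and with all 20 libraries in 1 fit (0.0471). Fos, Egr2, Junb and Btg2 did not pass in controls, with adjusted p-values of 0.199, 0.137, 0.662 and 0.824. Without ventral control 1, Fos was lower ventrally and passed (log2 difference -1.18, against -0.79 with it, adjusted p = 0.039). With any other single library left out Fos did not pass (adjusted p up to 0.456). Limma-voom called Fos lower (-1.23, adjusted p = 0.0212) and Egr2 higher (0.92, adjusted p = 0.0362) in the ventral controls.

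After the protocol the same 5 genes differed in the same directions, and Egr2 as well. Of the 10 genes, 6 differed between the regions, beside 26.7% of all 13640 genes tested. Arc, Nr4a1, Dusp1 and Egr1 were again lower in the ventral region, and Jun and Egr2 were higher. The dorsal mean of Arc was now 2.05 times the ventral one (adjusted p = 0.00191). Nr4a1 stood at 2.41 times (adjusted p = 0.000109), Dusp1 at 1.49 times (adjusted p = 0.00995) and Egr1 at 1.47 times (adjusted p = 0.0357). Jun was 2.74 times as high in the ventral region (adjusted p = 2.63e-06). The Egr1 call was lost without dorsal preconditioning 1, 4 or 5 or ventral preconditioning 1, 2, 4 or 5, with an adjusted p of up to 0.0839.

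Egr2 was 5.31 times as high in the ventral as in the dorsal treated libraries (2.21 against 0.416 CPM, adjusted p = 0.0116), where controls had 2.19 and 1.33 CPM. The size depends on dorsal preconditioning 2, which narrowed the gap: the log2 difference was 2.33 with that library and 3.94 without it (adjusted p = 0.000114). The ventral means lay within their spread of each other, and the dorsal values are the low ones described above. The difference between those gaps is the interaction, which did not pass.

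**Figure D2:**
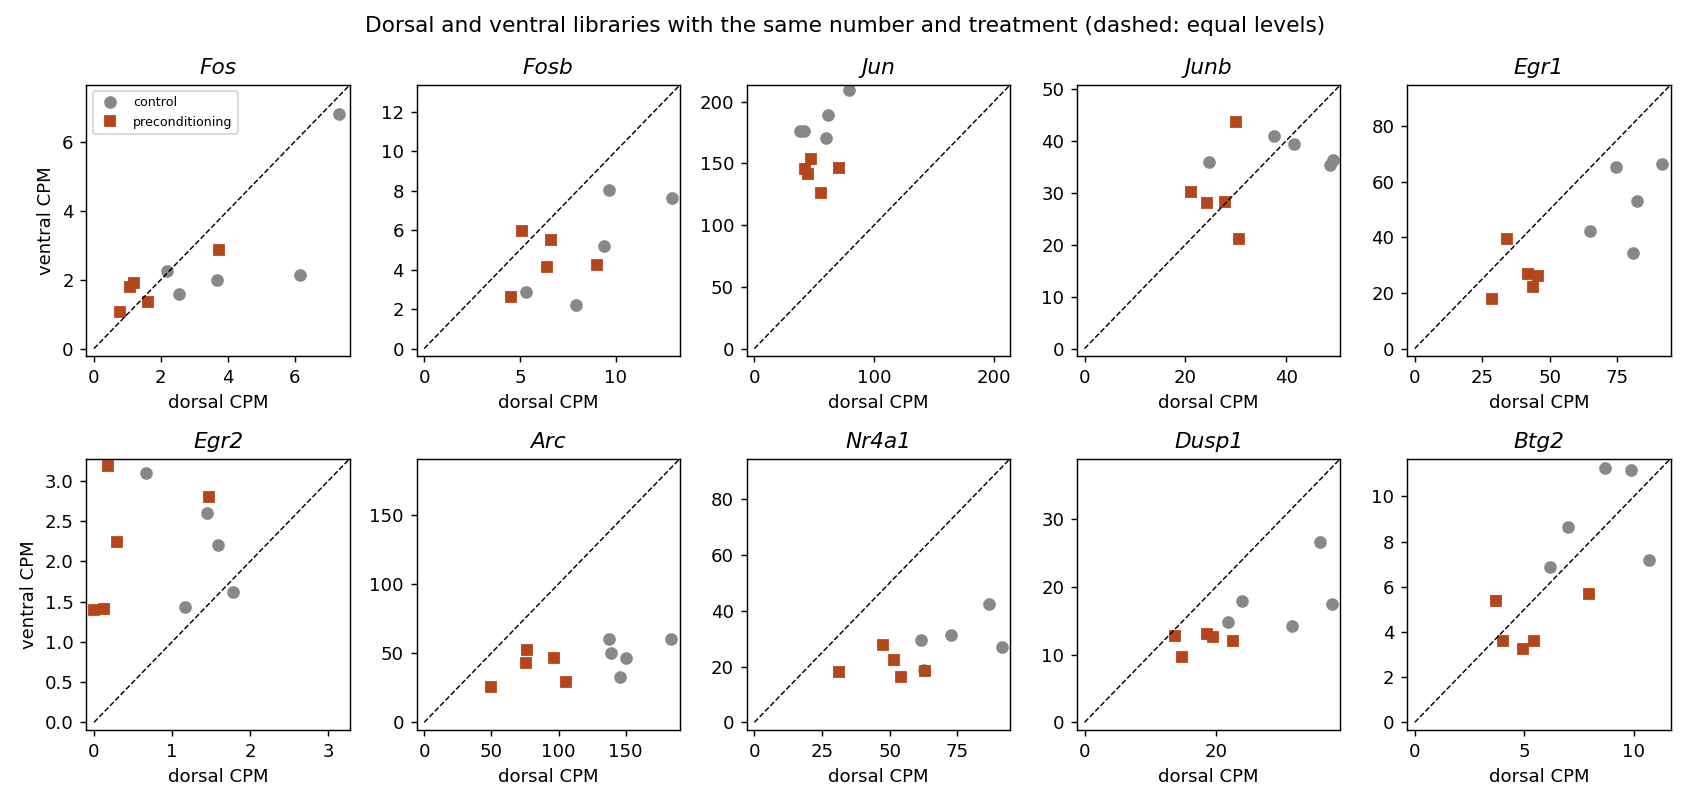
Ventral against dorsal CPM for each pair of libraries with the same number and treatment, 1 panel per gene; the dashed line marks equal levels. Arc, Nr4a1 and Dusp1 lie below the line in 5 of 5 pairs in both treatments, and Jun lies above it in all 10 pairs.

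Single libraries shaped several of these values. Relative to the mean of the dorsal controls (log2 CPM, prior count 2), dorsal preconditioning 1, 3 and 4 were lower for 10 of the 10 genes, and dorsal preconditioning 2 and 5 for 8. Dorsal preconditioning 2 was the highest of its group for 5 genes (Fos, Egr2, Jun, Dusp1 and Btg2) and the lowest for the other 5 (Fosb, Junb, Egr1, Arc and Nr4a1). No other library was at one end or the other for more than 7 genes. Ventral preconditioning 5 was below the ventral control mean for 10 of 10 genes, and ventral preconditioning 3 for 6.

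Fos was highest in control number 1 in both regions, at 7.32 CPM dorsally and 6.81 CPM ventrally, where the other ventral controls were at most 2.24 CPM. Ventral control 1 was also the shallowest library, and its Fos value rests on 22 counts. Without it the ventral log2 fold change of Fos was -0.09, against -0.48 with it. Neither value passed.

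**Figure D3:**
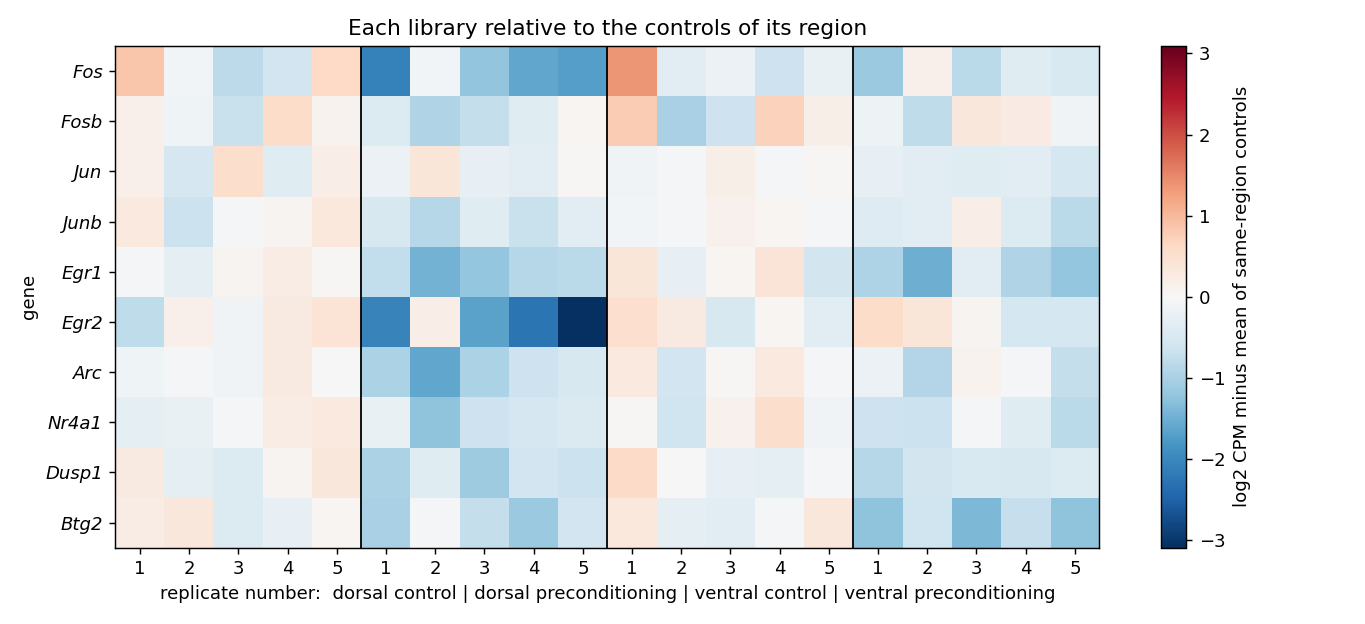
Log2 CPM of each gene (rows) in each library (columns, by group and replicate number) minus the mean of the controls of the same region; blue is lower, red is higher. The dorsal treated block is blue for most genes, with dorsal preconditioning 2 red for Egr2 and Jun. Dorsal preconditioning 5 is just above 0 for Fosb (0.057) and Jun (0.040). In the ventral treated block Egr1, Btg2, Jun, Dusp1 and Nr4a1 are below 0 in every library. Nr4a1 is only just so in ventral preconditioning 3, at -0.045.

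Profiles over the 20 libraries were then compared with those of all other genes for Egr1, Arc, Jun and Btg2, the genes called in the dorsal or ventral comparison. Likeness was measured as the root-mean-square difference of log2 CPM after each gene's own mean was removed. The nearest gene to Arc among all others tested was Nr4a1, at 0.249, nearer than each of 14077 genes outside the list, of which ENSRNOG00000001843 came first at 0.265. For Egr1 the nearest listed gene was Dusp1, at 0.438, and 41 genes outside the list were nearer, led by ENSRNOG00000014806 at 0.336. For Btg2 it was also Dusp1, at 0.460, with 157 outside genes nearer, led by ENSRNOG00000037371 at 0.335. For Jun it was Junb, at 0.866, with 5949 outside genes nearer, led by ENSRNOG00000002227 at 0.222. These figures share the contrast between regions, in which Arc and Nr4a1 are both higher dorsally.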

How the data were processed

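The authors deposited 1 table of raw counts per Ensembl gene ID, with whole numbers, 1 column per library and no normalization. The submitters' processing notes name STAR, DESeq2 and the build Rnor_5.0; the counting tool, annotation and use of strand are not given in the sources used here, so reads shared with paralogs or overlapping genes may be split in an unknown way. Libraries were stranded poly(A) libraries, per the labels' protocols. Columns beginning with e were matched to the titles beginning with p by number and region letter. No column was left out.

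Each comparison was fitted on its own 10 libraries, and the interaction on all 20, with edgeR 4.0.16 in R 4.3.3 (filterByExpr, TMM, glmQLFit with robust=TRUE, glmQLFTest). P-values were adjusted over all genes tested by Benjamini-Hochberg. Standard errors are the log2 fold change divided by the square root of F, and 95% intervals use the fit's degrees of freedom. The fit was also run on simulated counts, whose outcome is not given here. Libraries were drawn independently there, so the likeness of same-numbered libraries was not simulated. Levels are CPM with TMM factors from all 20 libraries; 3 counts correspond to 0.144 to 0.929 CPM. Alternatives used DESeq2 1.42.0, limma 3.58.1, other filters and thresholds, the replicate block, and each library left out in turn. All 10 genes are named whatever their result, and the nearest genes by the stated distance. The genes and lists were chosen with earlier results of these data known. A wider list of activity-regulated genes and a list of cell type markers had been drawn up by symbol and were not analysed here, because 0 IDs matched the RefSeq table. Same-numbered libraries were checked for pairing by the correlation of their deviations from group means, the numbers coming from the titles. All 5 pairs exceeded 0.1 only between dorsal and ventral controls (0.200 to 0.393). The ventral library most correlated with a dorsal one had its number for 5 of 5 controls and 4 of 5 treated libraries. Between control and treated libraries this held for 0 of 5 dorsally and 2 of 5 ventrally. Figures were drawn with matplotlib 3.10.9.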

Additional observations from a re-analysis of the deposited data

Results flagged for a closer look

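Each of the 10 genes was searched in each group of 5 for a library far from the rest by Dixon's ratio, with a critical value of 0.71. That was so in 4 of the 40 groups; about 2 would be flagged by chance, or 1 in 20.

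In dorsal preconditioning 2, Fos measured 3.73 CPM, with the rest of its group between 0.791 and 1.60, and Egr2 measured 1.48 CPM, with the rest between 0 and 0.292. In ventral control 1, Fos measured 6.81 CPM, with the other ventral controls between 1.59 and 2.24. In dorsal control 4, Arc measured 184 CPM, with the other dorsal controls between 138 and 150.0; without that library the log2 fold change of Arc in the dorsal region was -0.83 (adjusted p = 0.0579).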

How the results depend on the processing

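The number of the 10 genes called was 2 in the dorsal comparison and 6 with limma-voom and sample quality weights, which added Fos, Egr2, Dusp1 and Btg2; the cause was not tested. Leaving out 1 library gave 1 to 3 in the dorsal comparison, 2 to 4 in the ventral one, 0 to 0 for the interaction, 5 to 6 between control regions and 5 to 6 between treated regions. With the replicate block the counts were 2, 4, 0, 6 and 6. The block added Nr4a1 in the ventral comparison (adjusted p = 0.0275) and Fosb between control regions, and ended no call. In the ventral, dorsal and treated-region comparisons not every same-numbered pair correlated above 0.1. Between treated regions the lowest pair was at 0.0376, but the mean was 0.197 and 4 of 5 libraries matched their own number best. In the dorsal and ventral comparisons 0 of 5 and 2 of 5 did, so pairing was not shown there.

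The sign of an estimate changed for 8 of the 50 combinations of gene and comparison, none of which passed in the reversed fit. With limma-voom, Egr2 in the ventral comparison was -0.044, the interaction of Fosb -0.0070, of Egr1 -0.13 and of Nr4a1 -0.23, and Btg2 between control regions -0.012. With the replicate block, ventral Egr2 was -0.037. With 1 library left out, estimates ran from -0.24 to 0.047 for dorsal Jun, -0.42 to 0.037 for ventral Fosb, -0.11 to 0.19 for ventral Egr2, -0.15 to 0.15 for the interaction of Egr1, -0.083 to 0.23 for that of Nr4a1, -0.024 to 0.17 for Btg2 between control regions and -0.14 to 0.69 for Fos between treated regions. Egr2 had between 0 and 46 counts in a library, which limits the precision of its values.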
